A study of Mus musculus with 22 samples.

Results

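Gene expression in extraocular muscle (EOM), which turns the eyeball, was set against that in leg muscle of Balb mice at 12 months of age. The comparison takes in the 2 arrays of 12-month Balb EOM and the 3 arrays of 12-month Balb leg muscle, 5 of the 22 arrays of the series, and all 12422 probe sets that are not controls. The arrays were chosen by the labels for strain, muscle and age, with no use of measured values. The series holds EOM and leg muscle of Balb and of SJL mice, a strain known for a dysferlin mutation, at 10 and 12 months, measured as total RNA on Affymetrix mouse arrays. Of the other groups, SJL at 12 months (2 EOM and 3 leg arrays) and Balb at 10 months are used here to ask where 12-month Balb differs. Balb at 10 months has 3 EOM and 3 leg arrays, of which replicates 2 and 3 of each muscle are used. Replicate 1, with high 3 prime to 5 prime Actb ratios, enters the tests only in a fit of all 22 arrays. Neither the leg muscle taken, the sex of the mice, any pooling, nor whether replicates are separate animals is given in the labels, and the p-values therefore cover no more than the spread among these samples.

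Extraocular muscles descend from head mesoderm, whereas leg muscles come from somites, and these lineages rely on different positional transcription factors. Adult extraocular muscles keep myosins that other muscles give up after birth, hold both singly and multiply innervated fibres, and lie among the fat, glands and connective tissue of the orbit. Leg muscle is built of fast fibres with a share of slow fibres and stores glycogen for bursts of work.

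The values are intensities on a linear scale, 1 for each probe set and array, with a common 2%-trimmed mean between 1499.7 and 1499.8 on the 22 arrays. Ratios of 3 prime to 5 prime Actb signal, a measure of intact RNA, were 1.34 and 1.46 in EOM, against 1.43, 1.17 and 1.56 in leg. The same ratio for Gapdh was less even, at 0.833 and 0.733 in EOM, against 0.098, 1.44 and 0.706 in leg. Median intensities were 561.0 and 519.5 in EOM, against 451.8, 428.0 and 444.6 in leg. Skeletal muscle genes were bright in both groups: Myh1, a fast myosin heavy chain, had 41978 and 38223 in EOM, against 32029, 36204 and 36358 in leg. Probe sets carrying the single symbol Myh13, the myosin peculiar to EOM, were not among those analysed here. The number of arrays limits the precision.

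By limma on log2(intensity + 16), with Benjamini-Hochberg adjustment over all probe sets and a threshold of 0.05, 1339 probe sets were higher in EOM (10.8% of those tested) and 1035 were lower (8.33%). They named 1114 genes that rose and 869 that fell. At least 4-fold changes were found for 246 probe sets that rose and 85 that fell. Both EOM arrays lay above all 3 leg arrays for 3811 probe sets (30.7%) and below them for 2279 (18.3%), so that the groups did not overlap for 49.0% of probe sets. Scaling mattered for the split between directions: the median log2 difference over all probe sets was 0.18 as deposited, -0.01 after quantile normalization and -0.10 with each array centred on its median. The split was 1079 higher and 1256 lower after quantile normalization, and 733 higher and 1923 lower after median centring. Without EOM replicate 1, 784 were higher and 671 lower, and without EOM replicate 2, 819 were higher and 739 lower. Shifts of gene groups are therefore given beside the median over all 8251 genes measured, which was 0.16; of those genes, taken by 1 probe set each, 12.4% rose and 9.55% fell.

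**Figure D1:**
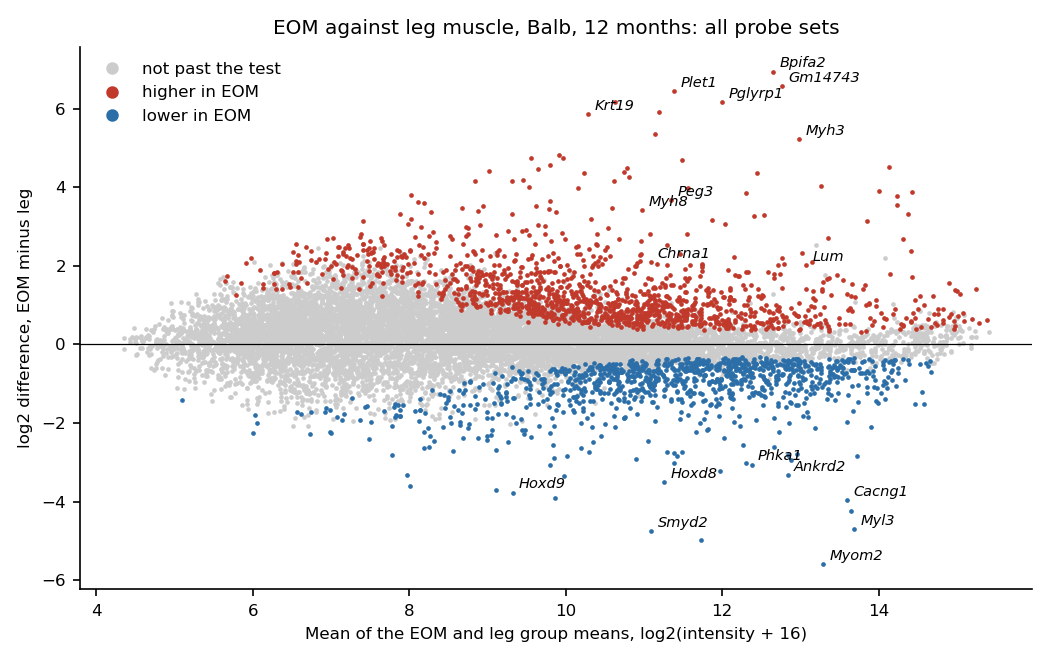
Each point is 1 of the 12422 probe sets, with the mean of the EOM and leg group means as log2(intensity + 16) on the x axis and the log2 difference, EOM minus leg, on the y axis. Red points were higher and blue points lower in EOM past the test. Bpifa2 stood highest at 6.94 and Myom2 lowest at -5.60.

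The 12 largest rises were drawn from probe sets with 1 symbol that passed the test and whose higher group averaged at least 1000. The rule also required that the EOM and leg arrays did not overlap, so non-overlap of these genes follows from it. Gland and epithelial genes were prominent in these rises, with 1 myosin among them. Bpifa2, a protein secreted by salivary glands, had intensities of 13674 and 11869 in EOM, against 103, 54.3 and 119 in leg. EOM minus leg was 6.94 in log2 (SE 0.44, adjusted p = 1.38e-06); with leg so dim, this value depends on the pseudocount and the other settings, between 6.38 and 7.17. Both EOM arrays stood far above the leg arrays, where the signal was near the floor. Plet1, an epithelial surface protein, had 3367 and 7215 in EOM, against 45.8, 32 and 44.8 in leg. Pglyrp1, an antibacterial peptidoglycan-binding protein, had 6265 and 9868 in EOM, against 53.7, 160.2 and 91.2 in leg. Krt19, a keratin of simple epithelia, had 1849.8 and 3031 in EOM, against 19.9, 20.4 and 37.1 in leg. The log2 differences of these 3 were 6.45 (adjusted p = 1.53e-05), 6.17 (adjusted p = 2.8e-06) and 5.86 (adjusted p = 2.89e-05).

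Among the other largest rises were secreted lipocalins and whey acidic proteins. Obp1a, an odorant-binding lipocalin, had 5045 and 1218 in EOM, against 12.1, 21.6 and 23.9 in leg, so the EOM arrays themselves differed widely. Wfdc18 rose by 5.35 (adjusted p = 1.23e-05) and Wfdc2 by 4.45 (adjusted p = 0.00235), both members of the whey acidic protein family. Mup5 rose by 4.37 (adjusted p = 1.83e-05) and Mup3 by 4.18 (adjusted p = 0.00096). The major urinary proteins are near-identical copies of one another, so their probe sets may not tell the members apart. Gm14743, with 17633 and 9929 in EOM, against 185, 76.4 and 129 in leg, rose by 6.57 (adjusted p = 2.94e-06). Cyp1b1, a cytochrome P450 of steroid metabolism, rose by 4.75 (adjusted p = 5.1e-05) on its brighter probe set, whereas its second, dimmer probe set gave -1.01 (adjusted p = 0.424).

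The 12 largest falls under the same rule were of genes of several kinds. Myom2, a protein of the M-band that ties thick filaments together, had 396 and 374 in EOM, against 18197, 24113 and 16759 in leg. It was 48.6-fold lower in EOM, EOM minus leg at -5.60 in log2 (SE 0.18, adjusted p = 7.77e-09). Smyd2, a lysine methyltransferase of muscle, had 142 and 137 in EOM, against 3885, 4508 and 4220.2 in leg, and fell by 4.76 (adjusted p = 3.54e-08) on the log2 scale. In each of these the leg arrays lay close together and far above both EOM arrays. Dnajb5, a heat shock co-chaperone, fell with a log2 difference of -3.92 (adjusted p = 0.00385), from leg values that themselves spread widely (113 and 62.7 in EOM, against 773, 2997 and 1470.0 in leg). Nkain1, a partner of the sodium pump, fell with -3.35 (adjusted p = 6.12e-05), and Atp1b2, a sodium pump subunit, with -3.08 (adjusted p = 0.00219).

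Slow fibre genes were lower in Balb EOM. Of 13 slow fibre genes measured, 8 fell and 1 rose, with a median log2 difference of -1.40. Myl3, the slow and ventricular essential light chain, had 1137 and 808 in EOM, against 23006, 26803 and 26584 in leg, a 26.1-fold lower level in EOM with EOM minus leg at -4.71 in log2 (SE 0.15, adjusted p = 7.77e-09). Ankrd2, a stretch-responsive protein of slow fibres, had 911 and 1828 in EOM, against 15221, 13056 and 11461 in leg, EOM minus leg at -3.33 in log2 (SE 0.24, adjusted p = 2.99e-06). Neither gene showed any overlap between the groups, which the rule for the largest falls required. Tnnc1, the slow troponin C, had 4421 and 5533 in EOM, against 20594, 22121 and 16562 in leg, EOM minus leg at -1.98 in log2 (SE 0.16, adjusted p = 9.08e-06). Myh7, the heavy chain of slow myosin, had 10463 and 12718 in EOM, against 32755, 36923 and 30742 in leg, EOM minus leg at -1.53 in log2 (SE 0.15, adjusted p = 2.73e-05). These kept a fair signal in EOM, unlike Myl3, and again every EOM array lay below every leg array. A second, dim Myh7 probe set gave -0.20 (adjusted p = 0.847). Atp2a2, the slow calcium pump, fell by 2.14 (adjusted p = 2.82e-06) on the log2 scale, Csrp3, a Z-disc sensor, by 1.84 (adjusted p = 0.000517), Tnni1, the slow troponin I, by 1.40 (adjusted p = 0.000346) and Myl2, the slow regulatory light chain, by 1.25 (adjusted p = 0.00096). Tnnt1, the slow troponin T, did not pass, with 23570.2 and 27560.0 in EOM, against 20048, 24849 and 28002 in leg and a log2 difference of 0.08 (adjusted p = 0.872), whereas its second, dimmer probe set was called lower at -1.23 (adjusted p = 0.000446). The riser was Myl6b, a light chain also made by other cells, at 1.19 (adjusted p = 0.00706); its second probe set was called lower at -1.71 (adjusted p = 0.0307), so the gene has no settled direction. In bulk tissue, fewer slow fibres and less slow-fibre RNA in each fibre cannot be told apart.

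Of 28 genes of immature fibres measured, 13 rose, 2 fell and 13 did not pass, with a median of 0.54. Myh3, the embryonic myosin heavy chain, had 17488 and 13979 in EOM, against 413, 428 and 372 in leg, 37.3-fold higher with EOM minus leg at 5.22 in log2 (SE 0.19, adjusted p = 1.22e-08). Myh8, the perinatal myosin heavy chain, had 3663 and 3656 in EOM, against 310.3, 401 and 283 in leg, EOM minus leg at 3.42 in log2 (SE 0.24, adjusted p = 2.8e-06). Both were dim in leg and bright in both EOM arrays, although a second, dim probe set for Myh8 gave -0.78 (adjusted p = 0.507). Actc1, the cardiac actin of developing muscle, had 39139 and 33843 in EOM, against 6007, 6107 and 9506 in leg, EOM minus leg at 2.37 in log2 (SE 0.20, adjusted p = 1.03e-05). Peg3, an imprinted gene of muscle stem cells and development, had 4339 and 5289 in EOM, against 322, 431 and 342 in leg, EOM minus leg at 3.67 in log2 (SE 0.19, adjusted p = 3.48e-07). Neither gene overlapped between the muscles. Mest, another imprinted developmental gene, rose by 1.79 (adjusted p = 0.00284), and Myf5, a myogenic factor of satellite cells, by 1.66 (adjusted p = 0.0261). Myod1, the myogenic factor of committed fibres, was 1 of the 2 that fell, with 2453 and 2458 in EOM, against 5259.9, 4854 and 4373 in leg and a log2 difference of -0.97 (adjusted p = 0.0011). Myl4, the atrial and embryonic light chain, rose by 1.07 (adjusted p = 0.0225) but lost its call after quantile normalization, and Tnnt2, the cardiac troponin T, did not pass at 0.42 (adjusted p = 0.384). The count of rises was 8 without EOM replicate 1 and 7 without EOM replicate 2.

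Most neuromuscular junction genes rose. Of 12 measured, 8 rose and 1 fell, with a median of 1.05. Chrna1, the alpha subunit of the muscle acetylcholine receptor, had 3637 and 3427 in EOM, against 729, 876 and 840.4 in leg, EOM minus leg at 2.10 in log2 (SE 0.17, adjusted p = 9.35e-06). Erbb3, a neuregulin receptor of Schwann cells and junctions, had 2278 and 2585 in EOM, against 363, 553 and 433 in leg, EOM minus leg at 2.41 in log2 (SE 0.23, adjusted p = 2.39e-05). Chrne, the adult receptor subunit, had 1880.1 and 2624 in EOM, against 887, 1031 and 1037 in leg, EOM minus leg at 1.16 in log2 (SE 0.28, adjusted p = 0.0131). Each of these was clear of the leg range, though the call on Chrne was lost without EOM replicate 2. Agrn, the nerve-derived organiser of the junction, rose by 1.07 (adjusted p = 0.00193), Chrnb1, another receptor subunit, by 1.07 (adjusted p = 0.00157), Prkar1a, a regulatory subunit of protein kinase A, by 0.90 (adjusted p = 0.00012), and Ache, which breaks down acetylcholine, by 1.03 (adjusted p = 0.0103), a call lost without EOM replicate 1. Chrnd, a further receptor subunit, stood at 119 and 603 in EOM, against 53.7, 60.6 and 61.2 in leg, and its call (adjusted p = 0.0438) was lost in several alternatives, among them removal of EOM replicate 2. Chrng, the fetal receptor subunit, gave 0.48 (adjusted p = 0.585), Rapsn, which clusters the receptor, -0.14 (adjusted p = 0.611), and Colq, which anchors acetylcholinesterase, 0.04 (adjusted p = 0.963), and these 3 did not pass on these probe sets. A second, dimmer Chrng probe set was called higher at 1.56 (adjusted p = 0.0386). Musk, the receptor kinase that starts junction assembly, went the other way, at 23.9 and 25.5 in EOM, against 338, 235 and 758 in leg, EOM minus leg at -3.33 in log2 (SE 0.53, adjusted p = 0.000914).

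**Figure D2:**
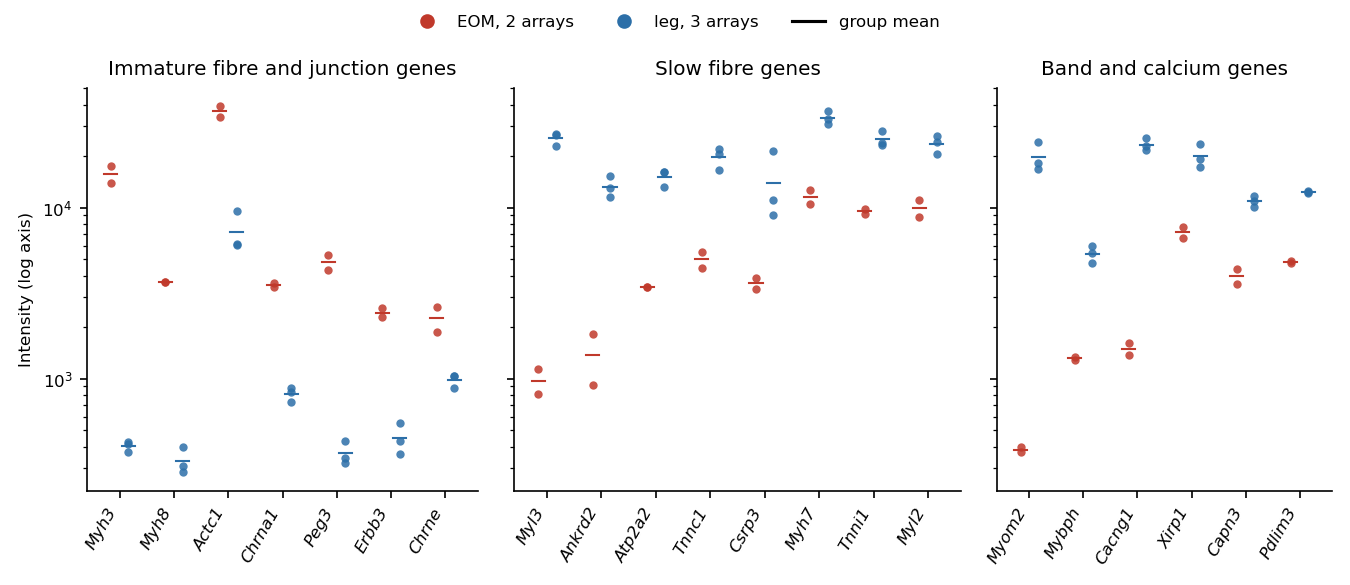
Intensity on a log axis for genes chosen among those past the test. They are genes of immature fibres and the junction that rose, and genes of slow fibres, sarcomere bands and the calcium channel that fell. Genes that did not pass or went the other way, such as Tnnt1, Rapsn and Musk, are not shown. Red points are the 2 EOM arrays, blue points the 3 leg arrays, and bars the group means. No gene so chosen overlapped between EOM and leg, and among those shown Myom2 (48.6-fold) and Myh3 (37.3-fold) had the widest gaps.

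Promoter sequences are shown for a pair of genes of immature fibres and junctions that rose, Myh3 and Chrna1, and a pair of slow fibre genes that fell, Myl3 and Ankrd2. They run from 250 bases before to 50 bases after the annotated start, 5 prime to 3 prime on the gene's strand, from RefSeq on GRCm38.p6. Capitals mark the E-box CAGCTG, a motif that myogenic factors can bind, and the TATA box TATAAA, each searched on both strands.
Myh3, chr11:67078050-67078349, plus strand: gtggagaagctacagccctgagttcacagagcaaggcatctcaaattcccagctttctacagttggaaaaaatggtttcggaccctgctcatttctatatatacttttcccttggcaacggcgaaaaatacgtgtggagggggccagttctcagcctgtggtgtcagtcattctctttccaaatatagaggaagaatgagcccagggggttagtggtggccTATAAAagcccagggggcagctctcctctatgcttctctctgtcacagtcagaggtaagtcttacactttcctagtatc
Chrna1, chr2:73580289-73580588, minus strand: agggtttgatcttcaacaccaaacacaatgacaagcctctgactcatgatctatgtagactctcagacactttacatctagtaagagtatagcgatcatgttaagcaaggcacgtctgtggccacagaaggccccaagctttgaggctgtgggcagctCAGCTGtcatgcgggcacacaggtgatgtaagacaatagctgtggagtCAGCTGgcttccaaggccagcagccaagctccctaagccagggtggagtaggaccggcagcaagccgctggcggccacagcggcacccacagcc
Myl3, chr9:110763428-110763727, plus strand: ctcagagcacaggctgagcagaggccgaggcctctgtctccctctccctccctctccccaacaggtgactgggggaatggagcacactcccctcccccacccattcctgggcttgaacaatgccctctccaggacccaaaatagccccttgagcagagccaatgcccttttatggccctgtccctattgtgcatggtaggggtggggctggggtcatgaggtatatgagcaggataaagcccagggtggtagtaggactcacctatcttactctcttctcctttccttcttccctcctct
Ankrd2, chr19:42035777-42036076, plus strand: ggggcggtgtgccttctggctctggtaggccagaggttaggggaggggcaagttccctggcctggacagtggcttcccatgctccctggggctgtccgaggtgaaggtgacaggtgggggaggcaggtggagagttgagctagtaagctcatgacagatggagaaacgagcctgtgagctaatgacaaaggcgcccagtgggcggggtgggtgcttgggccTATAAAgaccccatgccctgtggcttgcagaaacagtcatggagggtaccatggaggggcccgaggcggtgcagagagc
The Myh3 and Ankrd2 windows each held 1 TATA motif, although the genes moved in opposite directions. The Chrna1 window held 2 E-boxes, and the Myl3 window held neither motif. Over all 32851 promoter windows of this length, 16.3% held the E-box and 13.6% the TATA motif. A match is a description of the letters, and binding was not measured.

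Of 13 sarcomere scaffold genes measured, which hold filaments and Z-discs in register and include Myom2, 6 fell and 2 rose, with a median of -0.46. Mybph, a myosin-binding protein, had 1342 and 1288 in EOM, against 4720.4, 5988 and 5450.0 in leg, EOM minus leg at -2.01 in log2 (SE 0.17, adjusted p = 9.08e-06). Xirp1, an actin-binding protein of the ends of fibres, had 7705 and 6633 in EOM, against 23631, 17289 and 19190.2 in leg, EOM minus leg at -1.47 in log2 (SE 0.15, adjusted p = 4.06e-05). The EOM arrays were the low ones for both. Capn3, a muscle protease held by titin, fell by 1.46 (adjusted p = 3.94e-05) on the log2 scale, Pdlim3, a Z-disc adaptor, by 1.36 (adjusted p = 5.59e-06) and Nrap by 1.06 (adjusted p = 0.00487). Actn2, the Z-disc alpha-actinin of slow and cardiac muscle, rose by 2.14 (adjusted p = 0.0161) and Cryab, a small heat shock protein, by 0.52 (adjusted p = 0.0329), and 0 rises were left without either EOM array.

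Calcium handling genes moved both ways, with 5 of 16 lower and 3 higher. Cacng1, the gamma subunit of the muscle calcium channel, had 1366 and 1615 in EOM, against 21579, 22988 and 25449 in leg, EOM minus leg at -3.96 in log2 (SE 0.19, adjusted p = 1.72e-07). Cacna1s, the channel's pore, had 15032 and 14056 in EOM, against 21165, 27793 and 24169 in leg and a smaller fall, EOM minus leg at -0.74 in log2 (SE 0.15, adjusted p = 0.00497). S100a1, a calcium sensor, had 20565 and 20123 in EOM, against 10495, 8872 and 10087 in leg and rose by 1.05 (adjusted p = 0.00014). The groups did not overlap for any of the 3. Pvalb, the calcium buffer of fast fibres, had probe sets that disagreed, at -1.22 on the brighter and 3.27 on the dimmer.

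Fast fibre and contractile genes at the top of the intensity range must be read beside the leg arrays themselves. Of 19 fast fibre genes 11 rose and 4 fell, and of 24 thin filament and light chain genes 12 rose and 4 fell. Myl1, the fast light chain, had 43009 and 27706 in EOM, against 1945, 4821 and 2716 in leg at 12 months. In Balb at 10 months, on replicates 2 and 3, the same probe set had 71901 and 78699 in EOM, against 78439 and 61868 in leg. Acta1, the skeletal actin, had 29004 and 23951 in EOM, against 3162, 2928 and 2795 in leg at 12 months and 52692 and 56228 in EOM, against 75677 and 52924 in leg at 10 months. With 10-month replicate 1 left out, the 12-month leg arrays stood lowest of the 4 Balb groups for these abundant transcripts. The same was seen for Eno3, the muscle enolase, with 48103 and 34249 in EOM, against 2557, 4385 and 1786 in leg at 12 months and 73972 and 74458 in EOM, against 78323 and 65377 in leg at 10 months. Myh4, the fastest myosin heavy chain, had 45961 and 25536 in EOM, against 1371, 3663 and 3017 in leg at 12 months and 50272 and 59618 in EOM, against 64467 and 64857 in leg at 10 months. The 10-month replicate 1 arrays, left out for their Actb ratios, read lower than replicates 2 and 3 for Myl1 and Eno3. On them Myl1 had 2862 in EOM and 2498 in leg, and Eno3 had 23553 in EOM and 8586 in leg. Leg was also the dimmer muscle in SJL at 12 months. There Myl1 had 21264 and 33783 in EOM, against 2345, 11232 and 8221 in leg. Eno3 had 27813 and 41794 in SJL EOM, against 2040, 9069 and 14426 in SJL leg, so low 12-month leg values for these 2 were not confined to Balb.

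A set of 90 probe sets was therefore taken, after these values were seen. Their 10-month mean on replicates 2 and 3, in EOM or in leg, exceeded 41396, the highest intensity on any 12-month Balb leg array. Of the 90, 42.2% (38) were higher in EOM at 12 months, against 10.5% of the other 12332, and 2 were lower. Their median log2 difference was 0.55 at 12 months and -0.10 at 10 months. A member chosen through its leg mean had to read lower in 12-month leg, so the direction of that change follows from the rule and the values are a description. Leg levels at 12 months were more than 4-fold below those at 10 months for 19 of the 90 (21.1%), against 5.97% of the others. The cause was not tested. Leaving these probe sets out, 2 of the remaining fast fibre genes rose and 4 fell (median -1.13), and 7 thin filament genes rose and 3 fell. Slow fibre genes that fell include 2 of the bright set, Myh7 and Myl2. The fast genes outside the bright set that fell were Myom2, Pvalb, Fbp2 at -1.40 (adjusted p = 0.000238) and Gpd1 at -1.87 (adjusted p = 0.00187). The last 2 are enzymes of gluconeogenesis and of the glycerol phosphate shuttle. Pvalb fell on its brighter probe set only, since its dimmer one was called higher at 3.27 (adjusted p = 5.47e-06).

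**Figure D3:**
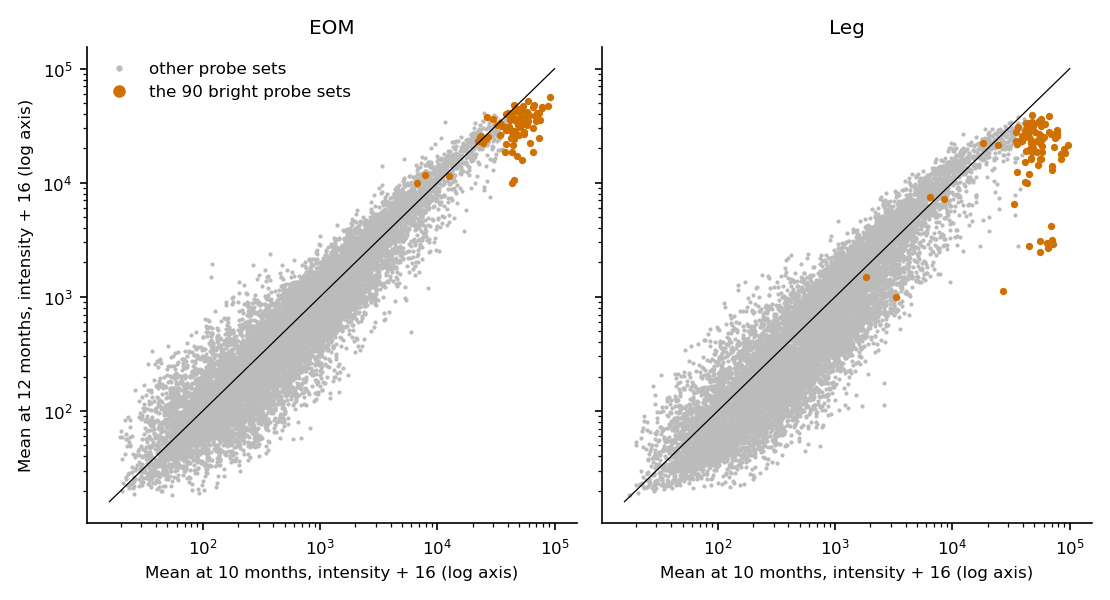
Mean intensity + 16 at 12 months (y) against that at 10 months, replicates 2 and 3 (x), on log axes, for Balb EOM on the left and Balb leg on the right. Orange points are the 90 probe sets above 41396 in EOM or leg at 10 months, grey points are all others, and the line marks equal values. In leg, 19 of the 90 lay more than 4-fold below their 10-month level.

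Of the myosin heavy chains, 11 were measured, and 4 rose and 1 fell. The call on Myh4, at 3.78 (adjusted p = 0.0238), was lost in 4 settings, among them without leg replicate 1 and with no variance trend. Its second, dimmer probe set gave 0.96 (adjusted p = 0.254). Besides Myh3, Myh8, Myh4 and Myh7, Myh11, the smooth muscle myosin, had 4923 and 4057 in EOM, against 1307, 1393 and 1399.7 in leg, EOM minus leg at 1.70 in log2 (SE 0.19, adjusted p = 9.59e-05). Myh1 differed by 0.20 (adjusted p = 0.305) and did not pass. Myh2, the fast oxidative myosin, was near the floor on its probe set, with 48.9 and 16.5 in EOM, against 57.5, 184 and 53.2 in leg, and gave -1.13 (adjusted p = 0.259). Myh9, Myh10 and Myh14, the non-muscle myosins, and Myh6, the cardiac myosin, overlapped between the groups, at 0.33 (adjusted p = 0.228), 0.45 (adjusted p = 0.763), 0.29 (adjusted p = 0.38) and -0.79 (adjusted p = 0.499).

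Several posterior positional genes were lower in EOM. Of 34 genes for limb and trunk position, chiefly Hox genes, 6 fell and 2 rose. Hoxd9 had 81 and 62 in EOM, against 1092, 1077 and 1366 in leg, EOM minus leg at -3.77 in log2 (SE 0.30, adjusted p = 8.09e-06). Hoxd8 had 414 and 343 in EOM, against 4948, 3796 and 4716 in leg, EOM minus leg at -3.51 in log2 (SE 0.29, adjusted p = 9.12e-06), and its second probe set also fell, by 2.92 on the log2 scale. In EOM these posterior homeobox genes were low on both arrays, and the leg arrays lay well clear. Hoxa10 had 12.8 and 32.1 in EOM, against 658, 316 and 405 in leg, EOM minus leg at -3.61 in log2 (SE 0.48, adjusted p = 0.000277). Hoxc9 had 149.8 and 19.3 in EOM, against 989, 1126 and 843 in leg, EOM minus leg at -3.70 in log2 (SE 0.61, adjusted p = 0.00128). En1, a homeobox gene of ventral limb ectoderm, had 256 and 223 in EOM, against 1998, 1815 and 1607 in leg, EOM minus leg at -2.83 in log2 (SE 0.29, adjusted p = 5.15e-05). Again no EOM array reached the leg range. Hoxd10 passed narrowly at -1.23 (adjusted p = 0.0433) and lost its call without EOM replicate 1, among other alternatives. The remaining 24 Hox genes did not pass. The 2 that rose were Tbx15, a T-box gene of limb and craniofacial mesenchyme, at 1.41 (adjusted p = 0.000464) on 1 of its 3 probe sets (0.30 and 0.24 on the others, neither called), and Pitx1. Pitx1, known for specifying the hindlimb and also made in head structures, had 2286 and 1544 in EOM, against 491, 431 and 458 in leg, EOM minus leg at 2.00 in log2 (SE 0.36, adjusted p = 0.00213).

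Of 21 genes of head position, 4 rose and 1 fell, with 2 rises left without EOM replicate 1 and 1 without EOM replicate 2. Eya2, a transcriptional cofactor, had 1809 and 1571 in EOM, against 306, 498 and 618 in leg, EOM minus leg at 1.85 in log2 (SE 0.27, adjusted p = 0.000537). Six2, a homeobox gene of head mesenchyme, had 1996 and 1769 in EOM, against 4239.6, 4168 and 4288 in leg and fell, EOM minus leg at -1.16 in log2 (SE 0.18, adjusted p = 0.000709). Twist1, a mesenchymal factor of the head, rose by 1.91 (adjusted p = 0.0121), Foxc1, which patterns the eye's surroundings, by 2.48 (adjusted p = 0.0103), and Pax6, the eye regulator, by 1.70 (adjusted p = 0.0207), each of which lost its call when 1 of the EOM arrays was left out. The other 16 did not pass on their brightest probe sets, where log2 differences lay between -0.76 (Lmx1b, a limb and eye homeobox gene) and 1.31 (Tfap2b, a neural crest factor). Further probe sets were called for 2 of them, Foxc2 higher at 2.33 (adjusted p = 0.0115) and Six4 lower at -0.94 (adjusted p = 0.0128).

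**Figure D4:**
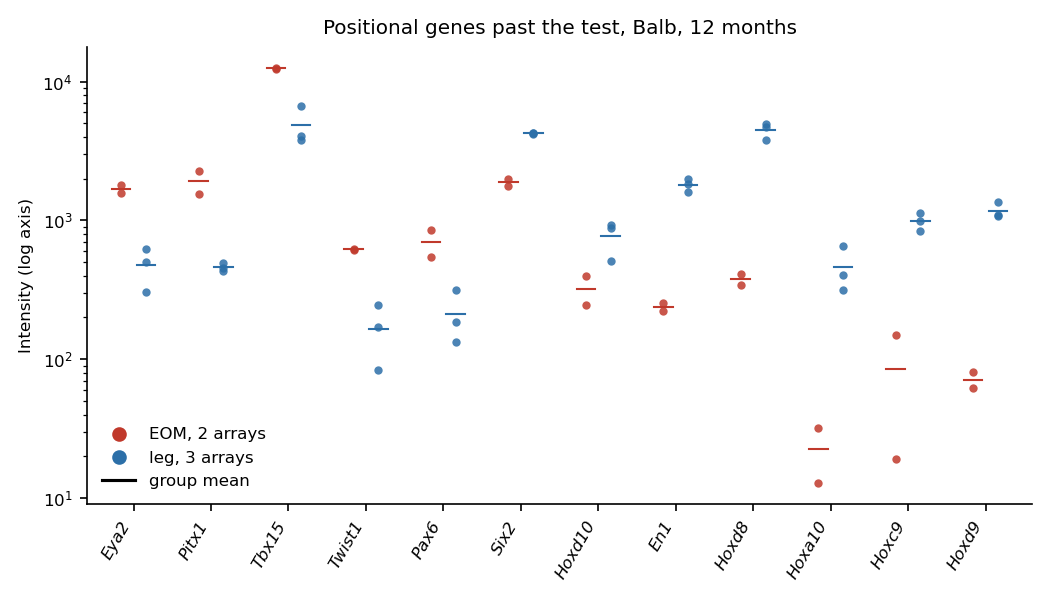
Intensity on a log axis for 12 of the 13 positional genes past the test, all but Foxc1. Red points are the 2 EOM arrays, blue points the 3 leg arrays, and bars the group means. Hoxd9, Hoxc9 and Hoxa10 were below 150 on both EOM arrays and above 300 on every leg array.

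Several glycogen genes fell, while several enzymes of glycolysis read higher. Of 33 measured, 9 rose and 7 fell, with a median of 0.16, the same as over all genes, and 3 rose without EOM replicate 1. Phka1, the muscle subunit of phosphorylase kinase that triggers glycogen breakdown, had 1202 and 1044 in EOM, against 8360.1, 9863 and 10285 in leg, EOM minus leg at -3.06 in log2 (SE 0.16, adjusted p = 2.89e-07). Ppp1r3c, which brings protein phosphatase 1 to glycogen, had 1407 and 820.2 in EOM, against 10171, 6983 and 9855 in leg, EOM minus leg at -3.03 in log2 (SE 0.36, adjusted p = 0.00014). Both were lower in every EOM array. Gyg, the glycogen primer, fell by 0.47 (adjusted p = 0.0276) on the log2 scale and Slc2a4, the insulin-regulated glucose carrier, by 0.43 (adjusted p = 0.0422). Without the bright set, 5 glycogen and glycolysis genes rose and 7 fell; those 5 included Pfkl, the liver phosphofructokinase, at 0.98 (adjusted p = 0.00113) and Ldhb, the heart lactate dehydrogenase, at 0.86 (adjusted p = 0.0123). Of 65 oxidative phosphorylation and TCA genes 8 rose and 2 fell (median 0.25), but only 1 rose without EOM replicate 1 and 4 without the bright set. Of 22 fatty acid oxidation genes 5 rose and 3 fell, with 2 rises left without EOM replicate 1. Ucp3, a mitochondrial carrier of muscle, had 1603 and 1937 in EOM, against 4101, 3806 and 4643 in leg, EOM minus leg at -1.24 in log2 (SE 0.16, adjusted p = 0.000257), and Pdk4, which switches muscle from glucose to fat, fell by 1.10 (adjusted p = 0.00229). Of 25 antioxidant genes 4 rose and 3 fell, among them Gsta4, a glutathione transferase, at 2.52 (adjusted p = 7.06e-05). Relative to the median over all genes, the list medians were 0.09 for the oxidative, 0.00 for the glycolytic, -0.03 for the fatty acid and -0.02 for the antioxidant genes. Median centring shifts all genes alike, so it could not change these values beyond rounding. After quantile normalization they were 0.15, -0.05, 0.15 and 0.27 in the same order.

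Of 17 clock genes measured, 5 fell and 0 rose by limma (6 and 0 at an unadjusted p under 0.05), with a median of -0.37. Rora, a nuclear receptor that drives Bmal1, had 411 and 544 in EOM, against 1988, 2205 and 2031 in leg, EOM minus leg at -2.10 in log2 (SE 0.19, adjusted p = 1.93e-05). Bhlhe40, a transcriptional repressor of the clock, had 2515 and 2385 in EOM, against 7525, 6238 and 5366 in leg, EOM minus leg at -1.36 in log2 (SE 0.15, adjusted p = 7.14e-05). Tef, an output factor, fell by 0.98 (adjusted p = 0.000999) on the log2 scale. Time of day at collection is not given in the labels. Of 31 immediate early and heat shock genes 3 rose and 3 fell, Nr4a1, an exercise-responsive nuclear receptor, falling by 1.38 (adjusted p = 4.75e-05). Of 19 atrophy and stress genes 6 rose and 2 fell, but 0 rose after median centring. Of 28 cell cycle genes 2 rose and 1 fell, and of 30 ribosomal protein genes 2 rose and 1 fell.

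Of 47 extracellular matrix genes measured, 19 rose, with a median of 0.63, and 0 fell by limma (27 higher and 2 lower at an unadjusted p under 0.05). Lum, a proteoglycan that spaces collagen fibrils, had 13295 and 14329.5 in EOM, against 3864, 3107 and 3305 in leg, EOM minus leg at 2.01 in log2 (SE 0.12, adjusted p = 9.71e-07). Fbln1, a basement membrane protein, had 3654 and 3594 in EOM, against 1049.9, 1345 and 1469 in leg, EOM minus leg at 1.50 in log2 (SE 0.22, adjusted p = 0.000641). Eln, the elastic fibre protein, had 5712 and 5766 in EOM, against 2686, 2155 and 2667 in leg, EOM minus leg at 1.20 in log2 (SE 0.18, adjusted p = 0.000567). All 3 lay above the leg range. The fibrillar collagens moved less, Col1a2 by 1.01 (adjusted p = 0.000102), Col3a1 by 0.93 (adjusted p = 0.00646) and Col1a1 by 0.58 (adjusted p = 0.00397). Under other scalings 20 rose after quantile normalization and 13 after median centring. Of 39 growth factor genes 12 rose and 2 fell. Igfbp6, which binds insulin-like growth factor 2, had 12915 and 13386 in EOM, against 4588, 5489.5 and 5258 in leg, EOM minus leg at 1.36 in log2 (SE 0.12, adjusted p = 1.38e-05). Gdf10, a TGF-beta family ligand, had 1095 and 1273 in EOM, against 221, 243 and 282 in leg, EOM minus leg at 2.18 in log2 (SE 0.31, adjusted p = 0.000449), and Frzb, a Wnt antagonist, rose by 2.15 (adjusted p = 0.000373). The count of growth factor rises was 7 without EOM replicate 2. Of 25 sarcolemma and dystrophin complex genes 8 rose and 2 fell, with Sgce, the epsilon-sarcoglycan, up by 0.96 (adjusted p = 0.000515) and Sgca, the muscle alpha-sarcoglycan, down by 0.66 (adjusted p = 0.0015). Of 23 ion transport genes 4 rose and 4 fell, with 0 rises and 1 fall left without EOM replicate 1.

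Of 11 peripheral nerve myelin genes 5 rose and 0 fell by limma (7 and 0 unadjusted), with a median of 1.31. Pmp22, a myelin protein, had 7146 and 8705 in EOM, against 2236, 2169 and 2168 in leg, EOM minus leg at 1.84 in log2 (SE 0.15, adjusted p = 9.93e-06). Mbp, myelin basic protein, had 4432 and 3135 in EOM, against 1183, 941 and 1345 in leg, EOM minus leg at 1.69 in log2 (SE 0.19, adjusted p = 9.27e-05), and its second probe set gave 0.72 (adjusted p = 0.181). Sox10, the Schwann cell factor, rose by 1.61 (adjusted p = 0.00141) and Egr2 by 1.53 (adjusted p = 0.000982). Summed over the list, intensity was 18021 and 18907 in EOM, against 5573, 5742 and 6227 in leg. Of 18 axon and neuron genes 3 rose and 0 fell (3 and 0 unadjusted), and none of the 3 rises held when EOM replicate 1 was left out. Of 10 smooth muscle genes 7 rose and 1 fell, with Acta2, the vascular actin, at 4965 and 4586 in EOM, against 2337, 2498 and 2296 in leg, EOM minus leg at 1.00 in log2 (SE 0.12, adjusted p = 0.000152). Of 23 endothelial and pericyte genes 7 rose and 2 fell, with Vwf, a clotting protein of vessel walls, up by 1.02 (adjusted p = 0.000441) and Abcc9, a pericyte and muscle potassium channel subunit, down by 1.17 (adjusted p = 6.15e-05).

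Of 18 adipocyte genes 11 rose and 1 fell, with a median of 1.27. Adipoq, the fat hormone adiponectin, had 7057 and 9112 in EOM, against 2477, 2114 and 2067 in leg, EOM minus leg at 1.85 in log2 (SE 0.16, adjusted p = 1.47e-05). Scd1, a fatty acid desaturase, had 29797 and 26122 in EOM, against 9083, 7768 and 7472 in leg, EOM minus leg at 1.79 in log2 (SE 0.14, adjusted p = 5.47e-06). Scd2, a second desaturase, had 5758 and 5233 in EOM, against 1471, 1191 and 1378 in leg, EOM minus leg at 2.02 in log2 (SE 0.16, adjusted p = 7.96e-06). The groups were well apart for each. Ucp1, the uncoupler of brown fat, was dim at 271 and 721 in EOM, against 46, 36.1 and 45.7 in leg, and rose by 2.98 (adjusted p = 0.00265) on 1 of its 2 probe sets. Car3, carbonic anhydrase of both fat and slow fibres, was the gene that fell, by 1.14 (adjusted p = 0.00797). Summed fat marker intensity was 88993 and 93295 in EOM, against 51796, 52910 and 48326 in leg. The part of fat, nerve or vessels in the muscle gene differences was not tested.

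Counts of immune genes depended strongly on single arrays. Of 34 macrophage and myeloid genes 8 rose and 0 fell by limma (16 and 0 unadjusted). Lyz2, the lysozyme of macrophages, had 6499.8 and 8050.0 in EOM, against 2729, 1843 and 1939.7 in leg, EOM minus leg at 1.75 in log2 (SE 0.19, adjusted p = 7.33e-05). Ctss, a protease of antigen-presenting cells, had 2246 and 3793 in EOM, against 1381, 1044 and 1497 in leg, EOM minus leg at 1.17 in log2 (SE 0.20, adjusted p = 0.00176). Both kept their calls when any 1 array was left out. The count was 15 without leg replicate 1 and 4 without EOM replicate 2. Of 24 interferon response genes 12 rose and 0 fell (18 and 1 unadjusted), of which Ifitm3, an antiviral membrane protein, had 10953 and 14316 in EOM, against 6741, 5254 and 4853 in leg, EOM minus leg at 1.17 in log2 (SE 0.16, adjusted p = 0.000354); only 3 rose without EOM replicate 2. Of 24 MHC and antigen presentation genes 10 rose and 0 fell (12 and 0 unadjusted), and 4 rose without EOM replicate 2. Psmb9, an immunoproteasome subunit, had 1530.3 and 2708 in EOM, against 669, 278 and 552 in leg, EOM minus leg at 2.08 in log2 (SE 0.38, adjusted p = 0.00235). EOM replicate 2 was the higher EOM array for Psmb9, Ctss and Ifitm3. Summed interferon list intensity was 27616 and 43440 in EOM, against 17472, 13998 and 16012 in leg.

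Of 18 complement genes 7 rose and 0 fell (11 and 1 unadjusted). Serping1, the inhibitor of C1, had 14374 and 15739 in EOM, against 6367, 6441 and 6169.8 in leg, EOM minus leg at 1.25 in log2 (SE 0.12, adjusted p = 2.69e-05). Cd55, a membrane inhibitor of complement, had 829.5 and 665 in EOM, against 1326, 912 and 1446 in leg and did not pass, EOM minus leg at -0.69 in log2 (SE 0.28, adjusted p = 0.115). Of 16 mast cell and granulocyte genes 5 rose and 0 fell (6 and 0 unadjusted), Tpsb2, a mast cell tryptase, at 3594 and 4645 in EOM, against 1513, 1358 and 1538 in leg, EOM minus leg at 1.47 in log2 (SE 0.19, adjusted p = 0.000222). Cma1, a mast cell chymase, rose by 2.02 (adjusted p = 0.00023). Of 24 lymphocyte and NK genes 2 rose and 1 fell; the fall was of Ighm, the immunoglobulin mu heavy chain, at 647 and 495 in EOM, against 3847, 4578 and 5851 in leg, EOM minus leg at -3.01 in log2 (SE 0.20, adjusted p = 1.8e-06). Of the 15 other probe sets annotated to Ighm, 1 was also lower past the test and none was called higher. Of 7 blood genes 1 rose, Hbb-b2, a beta globin, by 1.04 (adjusted p = 0.00205), and 0 fell (2 and 0 unadjusted).

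Of 39 orbital gland and epithelial genes 14 rose and 2 fell, with a median of 0.97. Muc1, an epithelial surface mucin, had 2503 and 3410.3 in EOM, against 169, 129 and 149 in leg, EOM minus leg at 4.16 in log2 (SE 0.34, adjusted p = 9.35e-06). Krt6a, a keratin of stratified epithelium, had 6245 and 12701 in EOM, against 856, 553 and 456 in leg, EOM minus leg at 3.86 in log2 (SE 0.34, adjusted p = 1.38e-05). Krt4, another such keratin, had 2416 and 3757 in EOM, against 891, 639 and 629 in leg, EOM minus leg at 2.06 in log2 (SE 0.22, adjusted p = 7.13e-05). Ltf, the lactoferrin of tears and granulocytes, had 869 and 1345 in EOM, against 219.7, 138 and 121 in leg, EOM minus leg at 2.69 in log2 (SE 0.48, adjusted p = 0.00215). In each, EOM replicate 2 was higher than EOM replicate 1, and in Bpifa2 and Obp1a it was lower. Amy1, an amylase, was 1 of the 2 that fell, by 0.97 (adjusted p = 0.00586). Summed intensity over the list was 57467 and 66713 in EOM, against 25196, 26497 and 26382 in leg. The part of such tissue in the other differences was not tested.

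Of 30 retina, lens and cornea genes 3 rose and 1 fell, with a median of -0.02. Aldh3a1, a corneal and epithelial crystallin, had 2889 and 8531 in EOM, against 397, 215 and 307 in leg, EOM minus leg at 3.99 in log2 (SE 0.45, adjusted p = 9.59e-05). Abca4, a retinoid transporter of photoreceptors, had 711 and 775 in EOM, against 93.5, 97.9 and 57.3 in leg, EOM minus leg at 2.97 in log2 (SE 0.50, adjusted p = 0.00143). Guca1a, a photoreceptor calcium sensor, had 722 and 542 in EOM, against 71.5, 94.7 and 89.9 in leg, EOM minus leg at 2.67 in log2 (SE 0.48, adjusted p = 0.00226). The gene that fell was Opn1mw, at -1.88 (adjusted p = 0.00396). Rom1 gave 2.06 (adjusted p = 0.052) on its brighter probe set, and its dimmer probe set was called higher at 1.76 (adjusted p = 0.0475). Among the other members, Cryaa and Rcvrn were low in both muscles. Cryaa, the main lens crystallin, had 152 and 79.9 in EOM, against 292, 159 and 153 in leg. Rcvrn, a photoreceptor protein, had 48.6 and 55.2 in EOM, against 64.7, 59.2 and 46.1 in leg. Of 10 melanocyte genes 2 rose and 0 fell (4 and 1 unadjusted), namely Sox10 and Ptgds, both made outside melanocytes as well. Tyr, the pigment enzyme, had 216 and 142 in EOM, against 39.3, 139.6 and 122 in leg and did not pass, at 0.86 (adjusted p = 0.411). Of 7 sex-linked genes, Eif2s3y, a Y-linked translation factor, fell by 1.24 (adjusted p = 0.0189) and 0 rose (0 unadjusted). That call was lost in 4 settings, among them without leg replicate 2 and without leg replicate 3. The other 6 did not pass, among them Xist at 0.67 (adjusted p = 0.38), Kdm5d at -0.85 (adjusted p = 0.395) and Uty at -0.46 (adjusted p = 0.49).

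**Figure D5:**
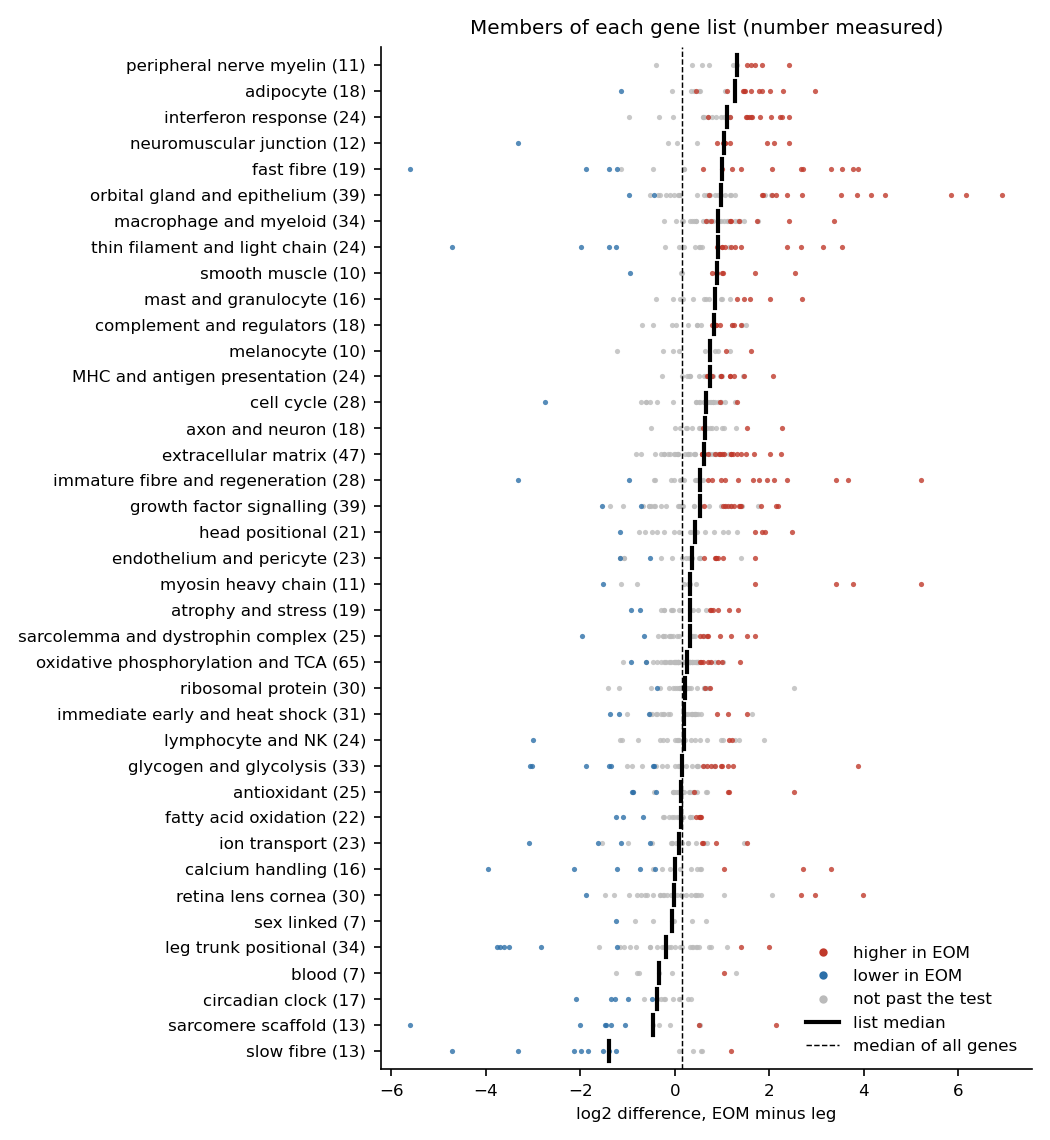
The log2 difference, EOM minus leg, of each measured member of the 39 gene lists, ordered by list median with the highest list at the top. Red and blue points were higher or lower past the test, grey points were not, black bars are list medians and the dashed line is the median of all genes, 0.16. Nerve myelin (1.31) and adipocyte (1.27) genes stood highest and slow fibre genes (-1.40) lowest.

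Most differences had the same sign in the groups that share no arrays with 12-month Balb. In Balb at 10 months, on replicates 2 and 3, 1173 of the 1339 higher probe sets (87.6%) and 948 of the 1035 lower ones (91.6%) had the same sign. Of all probe sets, 49.9% and 50.1% had that sign. In SJL at 12 months the numbers were 1217 (90.9%, against 56.5%) and 972 (93.9%, against 43.5%). Over all probe sets, 6.40% rose and 5.68% fell past the test in Balb at 10 months, and 7.86% and 6.97% did in SJL. Of the 12-month Balb rises 39.2% were called in Balb at 10 months and 45.7% in SJL, which are 66.0% and 62.7% of the rises called there. Of the falls 46.2% and 57.5% were called, or 67.8% and 68.7% of the falls there. Called with the opposite sign were 8 rises and 2 falls at 10 months, and 2 and 2 in SJL. The signs rest on separate arrays, but the calls do not rest on separate estimates of spread. Calls in SJL came from the same fit as those in 12-month Balb. Calls in Balb at 10 months came from a fit that included the 12-month Balb arrays. The shares of calls in common are therefore a description and not an independent test.

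The difference of EOM from leg differed between the strains at 12 months, by a direct test of Balb minus SJL, for 50 probe sets (0.403%), 33 of them higher and 17 lower in Balb. Of the lower ones, 4 were slow fibre genes. Tnnc1, given above for Balb, had 28228 and 31048 in SJL EOM, against 22842, 30659.8 and 26298 in SJL leg, and the strains differed by -2.15 (SE 0.23, adjusted p = 0.00347). Myh7 had 39361 and 42471 in SJL EOM, against 29513, 38540.3 and 34983 in SJL leg, a difference between strains of -1.79 (SE 0.21, adjusted p = 0.00347). In SJL neither EOM array lay below the leg range for these genes, whereas in Balb both did. Myl3 had 5055 and 5542 in SJL EOM, against 24426, 28731 and 28659 in SJL leg, a difference between strains of -2.35 (SE 0.21, adjusted p = 0.000838). Of 13 slow fibre genes 4 had this lower difference, the fourth being Myl2 at -1.59 (SE 0.28, adjusted p = 0.0362), while in SJL itself 4 fell and 2 rose (median 0.16). The total was between 20 and 30 when Balb EOM replicate 2, Balb leg replicate 2 or 3, or any 1 SJL array was left out, lowest without SJL leg replicate 2.

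The higher group held epithelial genes. Krt6a had 441 and 649 in SJL EOM, against 672, 487 and 761 in SJL leg, and the strains differed by 4.08 (SE 0.48, adjusted p = 0.00347). Pglyrp1 had 268 and 492 in SJL EOM, against 201, 168 and 152 in SJL leg, a difference between strains of 5.16 (SE 0.60, adjusted p = 0.00347). The SJL EOM arrays lay within or near the leg range for Krt6a and a little above it for Pglyrp1, and both Balb EOM arrays lay far above. Krt19 differed by 4.29 (SE 0.79, adjusted p = 0.0456), Muc1 by 2.81 (SE 0.49, adjusted p = 0.0341) and Aldh3a1 by 3.80 (SE 0.64, adjusted p = 0.0322). In all, 4 of the 39 gland and epithelial genes were in this group and 2 of the 34 macrophage genes. Kcnab1, a potassium channel subunit, was highest in SJL leg, and its own call in Balb was lost without either EOM array: it had 40.6 and 41.3 in EOM, against 187, 87.2 and 242 in leg of Balb, and 40.6 and 41.8 in SJL EOM, against 1816, 2469 and 2783 in SJL leg, a difference between strains of 3.73 (SE 0.63, adjusted p = 0.0322). Ndrg4 rose in both strains and less in Balb, by -1.85 (SE 0.29, adjusted p = 0.0244), and Nr2f2, an orphan nuclear receptor of vessels, differed by -1.74 (SE 0.30, adjusted p = 0.0336). The part of strain and of how much orbital tissue each sample held cannot be told apart.

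Between ages in Balb, 73 probe sets (0.588%) had a different EOM and leg contrast, 50 with a higher and 23 with a lower difference at 12 than at 10 months. Of the 50, 17 were of the bright set, among them Actn3, the fast alpha-actinin, at 3.86 (SE 0.58, adjusted p = 0.00842), Eno3 at 3.84 (SE 0.80, adjusted p = 0.0377) and Myl1 at 3.43 (SE 0.70, adjusted p = 0.0334). A second Actn3 probe set was called lower in 12-month EOM, at -2.24. Outside the bright set, Lima1, an actin-bundling protein, had 3227 and 3665 in EOM, against 1346, 1028 and 1354 in leg at 12 months and 1658 and 2116 in EOM, against 151 and 112 in leg at 10 months, an age difference of -2.23 (SE 0.32, adjusted p = 0.005). Elovl5, a fatty acid elongase, had 8476 and 6533 in EOM, against 1726, 1502 and 1551 in leg at 12 months and 15569.9 and 40852 in EOM, against 1025 and 1004 in leg at 10 months, an age difference of -2.40 (SE 0.41, adjusted p = 0.0157). Both rose at either age, and by less at 12 months. Pus1, a pseudouridine synthase, had 277 and 404 in EOM, against 1409.7, 1502 and 1487 in leg at 12 months and 813 and 405 in EOM, against 476 and 645 in leg at 10 months, an age difference of -2.13 (SE 0.45, adjusted p = 0.0391). The 10-month values of these 3 genes are those of replicates 2 and 3. On leg replicate 1, left out for its Actb ratio, Lima1 had 1260, Elovl5 1172 and Pus1 1419. For Lima1 and Pus1 this lay within the 12-month leg range, so the 10-month leg arrays were themselves split. The age difference thus sets 12-month arrays against 10-month replicates 2 and 3 only. Age goes with the array's overall brightness here. Array medians ran between 423.1 and 561.0 at 12 months, against 565.8 and 650.6 at 10 months (replicates 2 and 3). The highest intensity per array ran between 33366 and 61883 at 12 months, against 88354 and 122314 at 10 months. Brightness and age cannot be told apart. The total was between 20 and 45 when either EOM array or leg replicate 1 or 3 at 12 months, or any 1 array at 10 months, was left out, lowest without 12-month EOM replicate 1.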

How the data were processed

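Total RNA of EOM and leg muscle was hybridised to Affymetrix arrays by a standard protocol, per the labels. The deposited values are intensities with a common trimmed mean on every array, as found from the values; the authors' scaling, software and version are not given in the sources used here. Of 12488 probe sets, 66 controls were left out. Gene symbols came from the platform annotation: 10833 probe sets had 1 symbol, 396 several and 1193 none, and genes were named only from the first. Intensity + 16 was taken to log2 and fitted with limma 3.58.1 (R 4.3.3; lmFit, eBayes with a variance trend, Benjamini-Hochberg adjustment, threshold 0.05) over the 10 arrays at 12 months, which share 1 estimate of spread. The age difference used 18 arrays, without the 4 replicate 1 arrays at 10 months (Actb ratios 5.05 to 53.7). No low values were filtered out. A gene with several probe sets is given by the one with the highest mean at 12 months, and others are given where they were called differently past the test, and for some genes where they were not called. Named genes were the 12 largest changes each way among probe sets whose groups did not overlap and whose higher mean reached 1000, up to 6 members per list by adjusted p, all members of 5 lists (myosins, thin filament, both positional lists, junction), Cd55, the 6 largest strain and age differences each way, and list members given where a list is described. Members and lists were chosen with earlier results of these data known. The steps were tested on simulated data. Alternatives covered the pseudocount, a low filter, scaling, the arrays fitted, the variance trend, a replicate block and each array left out.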

Additional observations from a re-analysis of the deposited data

Results flagged for a closer look

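Each difference here was found by a direct test, as a term of the fit, of whether the gap between EOM and leg muscle was the same in another group. Against SJL at 12 months, the gap in Balb was higher by a log2 difference of 5.16 for Pglyrp1, 4.29 for Krt19, 4.08 for Krt6a, 3.80 for Aldh3a1, 3.73 for Kcnab1 and 2.81 for Muc1. It was lower for the contractile genes Myl3 (-2.35), Tnnc1 (-2.15), Myh7 (-1.79) and Myl2 (-1.59), and for Ndrg4 (-1.85) and Nr2f2 (-1.74). The adjusted p-values of these 12, by limma, lay between 0.000838 and 0.0456. The gap itself was -1.62 in Balb and -5.35 in SJL for Kcnab1, and 2.31 in Balb and 4.16 in SJL for Ndrg4. The Balb call for Kcnab1 was lost in 6 settings, among them the replicate block and leaving out either EOM array, and its second probe set gave 1.10 (adjusted p = 0.235). For Nr2f2 it was -0.49 in Balb and 1.25 in SJL. The causes were not tested.

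Against Balb at 10 months, the gap at 12 months was higher for Actn3 (3.86), Eno3 (3.84), Myl1 (3.43), Skap2 (3.22), Tyk2 (3.15) and Ttc39b (2.73), and lower for Efnb2 (-2.67), Nupr1 (-2.50), Elovl5 (-2.40), Hsd17b11 (-2.23), Lima1 (-2.23) and Pus1 (-2.13). Their adjusted p-values lay between 0.0047 and 0.0391. Actn3, Eno3 and Myl1 belong to the bright probe sets whose leg signal was lower at 12 months. Skap2, an adaptor of immune cells, had a gap of 0.33 at 12 months and -2.89 at 10 months, and Tyk2, a kinase of cytokine receptors, of 0.92 and -2.23. Efnb2, an ephrin of arteries, had 0.25 at 12 months and 2.92 at 10 months. These 10-month gaps rest on replicates 2 and 3. Leg values there were 1347 and 1237 for Skap2, 1741.5 and 2395 for Tyk2, and 110 and 197.5 for Efnb2. On 10-month leg replicate 1, left out for its Actb ratio, they were 1132, 320 and 1233.5. The causes were not tested.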

How the results depend on the processing

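Groups of 2 and 3 arrays limit all results: on simulated data for the 12-month Balb comparison, 31% of 2-fold and 62% of 4-fold changes were recovered. The simulation changed 200 of 12422 probe sets, whereas 2374 were called in the data. The adjustment depends on how many probe sets change, so these rates may not carry over to the data. Median centring gave 733 higher and 1923 lower probe sets between EOM and leg, and 25 higher and 46 lower for the age difference. Fitting all 22 arrays, including the 4 at 10 months with uneven Actb ratios, left 534 (360 higher and 174 lower) for EOM against leg, 8 (8 and 0; 174 lower at an unadjusted p under 0.05 by limma) for the strain difference and 1 (1 and 0; 164 lower unadjusted) for the age difference. With bright probe sets left out, an alternative chosen after seeing the data, 31 were higher for age. Replicate numbers showed no sign of pairing the samples (correlations of deviations -0.005 to 0.005). With 2 EOM arrays this cannot exclude that EOM and leg of 1 number came from the same animal. With the replicate block, EOM against leg had 2030 (1130 higher and 900 lower) and the strain difference 23 (14 and 9). Leaving out 1 array at a time gave 1455 to 2123 for EOM against leg (784 to 1213 higher, 671 to 910 lower), 20 to 40 for strain (13 to 33 higher, 4 to 14 lower) and 20 to 49 for age (15 to 33 higher, 5 to 21 lower). The lowest totals came without Balb EOM replicate 1, SJL leg replicate 2 and 12-month Balb EOM replicate 1, in that order. Of 209 named genes past the test, 149 lost their call in no setting in which they were fitted, the fit of all 22 arrays apart. None reversed. Of the 209, 208 were fitted with the low filter and 196 with bright probe sets left out. The causes were not tested.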

Other observations

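A pair of transporters outside the gene lists, picked after their values were seen, stood apart with little spread. Slc4a3, an anion exchanger of the heart and brain, had 10645 and 10858 in EOM, against 1066, 1163 and 1017 in leg. Its EOM minus leg value was 3.30 in log2 (SE 0.16, adjusted p = 1.72e-07), against 2.90 in SJL at 12 months and 2.57 in Balb at 10 months. Slc37a4, which carries glucose 6-phosphate into the endoplasmic reticulum, had 1956 and 1689 in EOM, against 12060.1, 13061 and 13321 in leg. Its EOM minus leg value was -2.81 in log2 (SE 0.14, adjusted p = 2.75e-07), against -2.40 in SJL at 12 months and -2.06 in Balb at 10 months. Neither gene overlapped between the muscles in 12-month Balb.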
